A study of Mus musculus with 3 samples.

Results

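The p53 pathway target genes described here are 33 genes in all. They comprise reported targets of p53 as well as *Trp53*, the gene of p53, and its partners. They were chosen by name, for their known place in the p53 pathway and with earlier results of these data known, and were grouped by what their products are known for: 7 genes of the feedback on p53, 9 of cell cycle arrest, 12 of apoptosis and 5 of DNA repair. All 33 had at least 1 probe among the 35019 gene names on the array. For 32 of them a probe was bright enough to be tested, that is, well above background throughout 1 group or more, and 22441 gene names in all met that condition. The exception was *Rrm2b*, a p53-induced subunit of ribonucleotide reductase, whose 2 probes were not well above background on any of the 9 arrays.

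The arrays hold RNA of male mouse ES cells of the EB5 line, which derives from E14tg2a, and address what the loss of *Nr0b1* (Dax1), an orphan nuclear receptor gene, changes in these cells. The cells of all 3 groups derive from ES cells targeted at *Nr0b1*, with *loxP* sites around its second exon, and carry *MerCreMer*, a tamoxifen-inducible Cre recombinase, and *Egfp*, both brought in by PiggyBac vectors and driven by the CAG promoter. The 3 groups, with 3 arrays each, were fl-/Y −Tx ES cells, with floxed *Nr0b1* and grown without 4-hydroxy tamoxifen (Tx), fl-/Y +Tx ES cells, of that genotype and kept in Tx for 4 days, and KO/Y ES cells, lines without the floxed part of *Nr0b1* that were established from colonies of Tx-treated cells. The study describes biological triplicates, and its methods give 2 independent pairs of floxed ES cells and their KO/Y descendants. It is not stated in the sources used here which culture or pair each array holds, or whether these cultures had mouse embryonic fibroblast feeders. No array held Tx-treated cells without a floxed allele, so that loss of *Nr0b1* and exposure to Tx with active Cre cannot be told apart in the +Tx group. In bulk RNA, fewer cells of a type and less RNA per cell cannot be told apart either.

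p53 is a transcription factor that is held at a low level by the ubiquitin ligase Mdm2 and accumulates after DNA damage or other stress. It then binds response elements made of a pair of short sequences, the decamers, and activates genes that halt the cell cycle, repair DNA or start apoptosis, while *Mdm2*, itself a target, closes a negative feedback loop. Mouse ES cells are known for a short G1 phase and for a p53 that also acts on differentiation and on the 2-cell-like state.

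Signals are given as log2 of the processed Cy3 intensity minus the 75th percentile of the array, called log2 signal below, and differences as log2 fold changes with their standard error (SE). A gene rose or fell where limma gave an adjusted p under 0.05 over all 22441 genes, whatever the size of the change. Levels are compared between arrays for 1 probe and never between genes, since probes differ in brightness. The label check is *Nr0b1* itself, whose log2 signal was 4.10 ± 0.0834 (SD, n = 3) in −Tx cells and -2.55 ± 0.123 (SD, n = 3) in +Tx cells, and was not well above background on any KO/Y array. Between 51.7% and 58.4% of the probes of an array were well above background and 0 spots were saturated. All 3 −Tx arrays and +Tx array 1 were on 1 slide, while +Tx arrays 2 and 3 and the 3 KO/Y arrays were on another. KO/Y and −Tx arrays never shared a slide, so that values with slide as a block are given for the calls of the p53 genes. For the lists of regulators, other targets and G2/M genes, only counts with the block are given, and for the cell type markers none. Calls of KO/Y over −Tx without a value from the block cannot be told apart from a difference between slides. With the block, the estimates of +Tx over −Tx come from +Tx array 1 against the −Tx arrays, those of KO/Y over +Tx from the KO/Y arrays against +Tx arrays 2 and 3, and those of KO/Y over −Tx from both steps added up.

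In +Tx over −Tx, 11 of the 32 p53 genes rose and 4 fell, where 12.0% of all genes rose and 14.8% fell. The median log2 fold change of the 32 genes was -0.01, beside -0.07 over all genes, and none of them passed 2-fold, where 2.50% of all genes did. With any 1 of the 3 −Tx arrays left out, 6 rose and 2 fell, where 8.73% to 9.12% of all genes rose and 8.44% to 10.3% fell. In KO/Y over +Tx, 11 rose and 1 fell, where 12.2% of all genes rose and 14.0% fell. Their median was 0.20, beside 0.01 over all genes, and again none passed 2-fold (3.40% of all genes). KO/Y over −Tx, which spans both steps, gave 17 genes that rose and 4 that fell, against 20.6% and 26.3% of all genes. The median was 0.28, beside -0.06 over all genes, and 4 of the 32 passed 2-fold (7.56% of all genes). These were *Pmaip1*, *Sesn1* and *Ddit4l*, which were higher in KO/Y cells, and *Ddb2*, which was lower. The 3 comparisons share arrays and are not independent of each other.

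**Figure D1:**
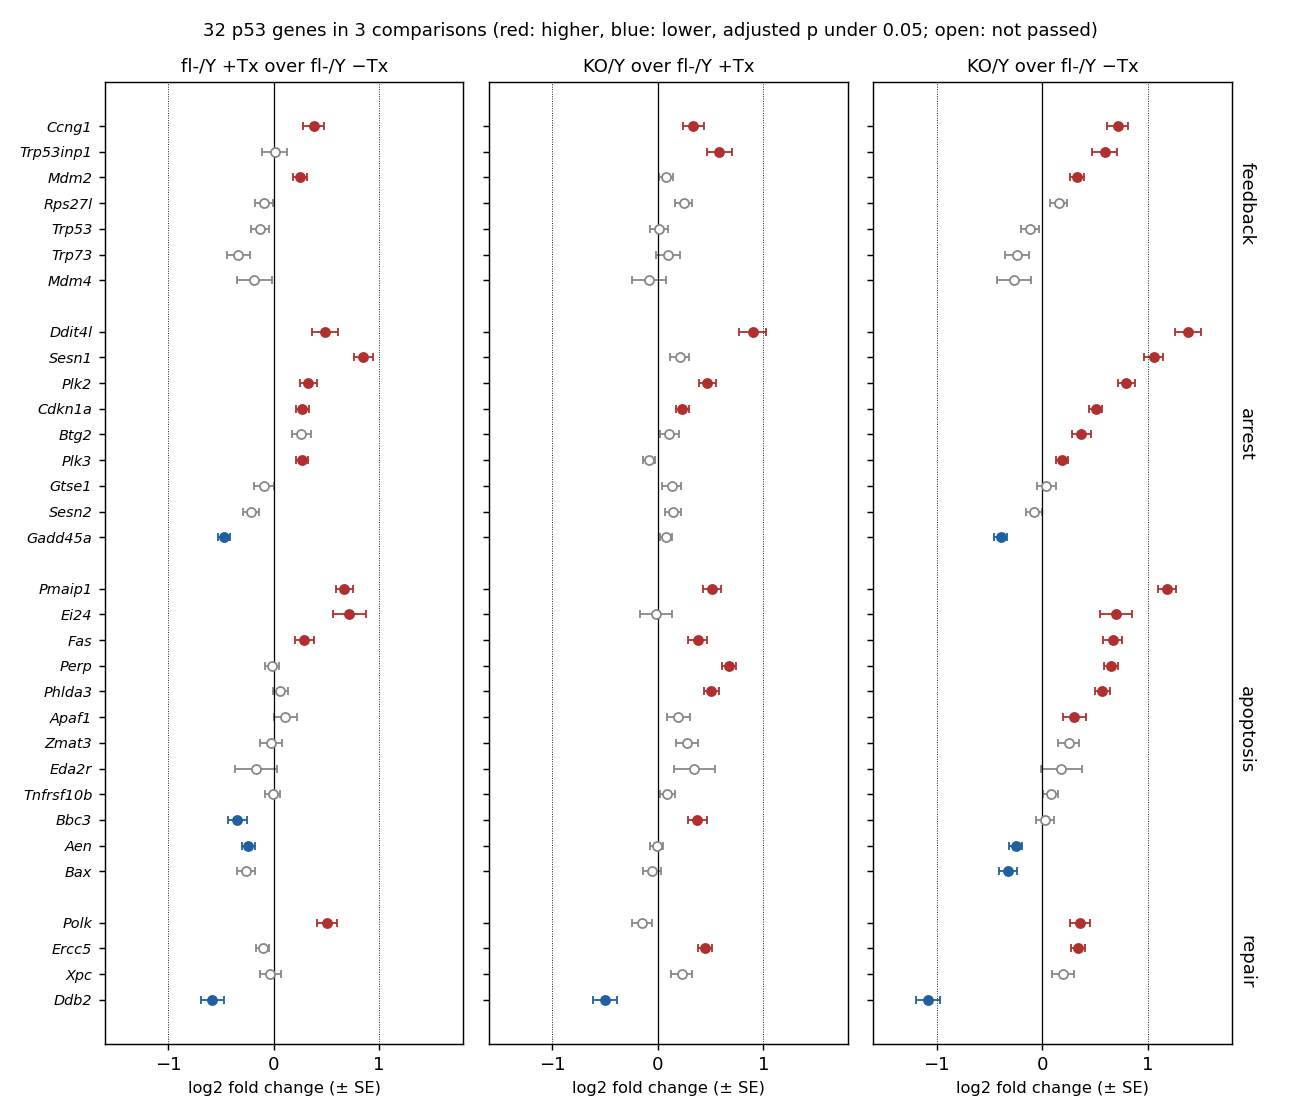
Log2 fold change (horizontal axis) of the 32 tested p53 genes (vertical axis, by role) in the 3 comparisons, with bars for the SE. Red points rose and blue points fell at an adjusted p under 0.05, open points did not pass, and dotted lines mark 2-fold: in KO/Y over −Tx, 17 genes rose, 4 fell, and *Ddit4l*, *Pmaip1*, *Sesn1* and *Ddb2* lie past the dotted lines.

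RefSeq promoter windows of 300 bases (GRCm38.p6, from 250 bases before a start site to 50 after it) were at hand for 25 of the 33 genes, and were searched on both strands for the p53 decamer and for the full p53 response element, a pair of decamers with a spacer of 0 to 13 bases. A decamer stood in a window of 13 of the 25 genes (52.0%), where 9.55% of all 27025 genes had one. A full response element stood in 1 of the 25, *Cdkn1a*, where 0.0740% of all genes had one. These matches are descriptions of letters and not shown sites of binding, and p53 elements farther away or in introns were not searched. The 250 bases before a start site are printed here for *Cdkn1a* and for *Gadd45a*, which holds a decamer and fell. They are also printed for 4 of the other 6 genes that hold a decamer and rose in KO/Y over −Tx (*Ccng1*, *Mdm2*, *Sesn1* and *Ddit4l*). *Cdkn1a* and *Sesn1* each have a further start site whose window holds no decamer (chromosome 17 from 29093519 to 29093818, and chromosome 10 from 41810324 to 41810623). For both genes the window with a match is the one printed. The printed stretches run 5′ to 3′ on the strand of the gene, with the letters of the decamers in capitals.
*Cdkn1a* (chr17:29090729-29090978, plus strand): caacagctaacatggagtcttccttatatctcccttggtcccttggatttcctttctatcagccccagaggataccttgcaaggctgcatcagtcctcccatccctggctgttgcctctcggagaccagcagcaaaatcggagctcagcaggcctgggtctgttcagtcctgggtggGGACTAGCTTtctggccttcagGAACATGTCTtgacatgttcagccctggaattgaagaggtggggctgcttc
*Ccng1* (chr11:40755287-40755536, minus strand): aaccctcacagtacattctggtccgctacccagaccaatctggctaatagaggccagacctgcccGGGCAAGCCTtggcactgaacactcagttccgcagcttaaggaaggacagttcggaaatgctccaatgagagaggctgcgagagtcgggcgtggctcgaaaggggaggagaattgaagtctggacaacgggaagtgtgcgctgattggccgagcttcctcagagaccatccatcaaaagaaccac
*Mdm2* (chr10:117710759-117711008, minus strand): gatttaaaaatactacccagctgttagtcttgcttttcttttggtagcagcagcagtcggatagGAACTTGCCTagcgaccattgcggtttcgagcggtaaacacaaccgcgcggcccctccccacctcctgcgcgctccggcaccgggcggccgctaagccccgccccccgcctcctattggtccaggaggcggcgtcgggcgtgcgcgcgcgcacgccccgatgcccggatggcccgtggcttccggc
*Sesn1* (chr10:41887189-41887438, plus strand): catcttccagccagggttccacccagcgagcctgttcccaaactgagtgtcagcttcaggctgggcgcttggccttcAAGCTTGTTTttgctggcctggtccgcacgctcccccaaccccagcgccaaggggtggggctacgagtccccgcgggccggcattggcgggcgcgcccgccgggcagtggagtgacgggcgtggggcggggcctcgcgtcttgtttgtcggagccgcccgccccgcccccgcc
*Ddit4l* (chr3:137623422-137623671, plus strand): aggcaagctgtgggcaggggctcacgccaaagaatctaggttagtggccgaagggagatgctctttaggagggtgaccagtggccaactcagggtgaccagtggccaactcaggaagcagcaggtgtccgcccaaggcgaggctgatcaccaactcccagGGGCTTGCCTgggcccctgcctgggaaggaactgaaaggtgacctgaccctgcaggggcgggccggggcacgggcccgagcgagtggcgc
*Gadd45a* (chr6:67037408-67037657, minus strand): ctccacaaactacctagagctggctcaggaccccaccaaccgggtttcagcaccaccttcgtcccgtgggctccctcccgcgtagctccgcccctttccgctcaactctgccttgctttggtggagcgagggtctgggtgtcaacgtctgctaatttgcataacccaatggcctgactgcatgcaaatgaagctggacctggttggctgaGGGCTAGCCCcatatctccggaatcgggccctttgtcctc

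The spacer between both decamers of *Cdkn1a* is 12 bases. In the other 5 stretches a single decamer stands at position -185 (*Ccng1*), -186 (*Mdm2*), -173 (*Sesn1*), -90 (*Ddit4l*) and -40 (*Gadd45a*), counted to its first base with -1 just before the start site. Of the 13 genes with a decamer, 7 rose, 3 fell (*Gadd45a*, *Bax* and *Aen*) and 3 did not pass in KO/Y over −Tx. Of the 12 genes without one, 7 rose, among them *Plk2*, *Fas* and *Phlda3*, none fell and 5 did not pass. In +Tx over −Tx, 7 of the 13 rose and 2 fell, while 3 of the 12 rose and 1 fell. In KO/Y over +Tx, 3 of the 13 and 5 of the 12 rose, and none fell. Of all genes, 12.0%, 12.2% and 20.6% rose in +Tx over −Tx, KO/Y over +Tx and KO/Y over −Tx, and 14.8%, 14.0% and 26.3% fell.

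Of the 7 feedback genes, 2 rose in +Tx over −Tx, 2 in KO/Y over +Tx and 3 in KO/Y over −Tx, and none fell. The shares of all genes that rose in these comparisons were 12.0%, 12.2% and 20.6%, and 14.8%, 14.0% and 26.3% fell. *Trp53* itself gave log2 signals of 1.29, 1.30 and 1.34 on the −Tx arrays, 1.33, 1.23 and 0.99 on the +Tx arrays, and 1.18, 1.21 and 1.20 on the KO/Y arrays. The KO/Y arrays all lay below the −Tx arrays, and the log2 fold change of -0.12 (SE 0.0857, adjusted p = 0.303) did not pass, with a value of 0.10 (adjusted p = 0.655) with slide as a block. RNA of *Trp53* does not measure the p53 protein, whose amount is set mostly after translation. *Mdm2*, the ligase that marks p53 for degradation, gave 5.56, 5.54 and 5.57 on the −Tx arrays, 5.77, 5.73 and 5.93 on the +Tx arrays, and 5.85, 5.93 and 5.87 on the KO/Y arrays. It rose by a log2 fold change of 0.25 (SE 0.0664, adjusted p = 0.0244) in +Tx over −Tx and 0.33 (adjusted p = 0.00367) in KO/Y over −Tx. All +Tx and KO/Y arrays lay above all −Tx arrays, while +Tx and KO/Y overlapped and their difference of 0.07 did not pass (adjusted p = 0.459).

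*Ccng1*, the gene of cyclin G1, which recruits a phosphatase to Mdm2, was the feedback gene that changed most in KO/Y over −Tx. Its log2 signals were 2.96, 3.07 and 3.07 on the −Tx arrays, 3.30, 3.30 and 3.65 on the +Tx arrays, and 3.80, 3.78 and 3.67 on the KO/Y arrays. The 3 groups did not overlap, although +Tx array 3 lay close to the KO/Y arrays and apart from the other +Tx arrays. The log2 fold changes were 0.38 (SE 0.101, adjusted p = 0.0246) in +Tx over −Tx, 0.34 (adjusted p = 0.0398) in KO/Y over +Tx and 0.72 (adjusted p = 0.000493) in KO/Y over −Tx. *Trp53inp1*, whose product promotes the activating phosphorylation of p53, gave 2.41, 2.33 and 2.47 on the −Tx arrays, 2.30, 2.23 and 2.72 on the +Tx arrays, and 3.04, 2.97 and 2.99 on the KO/Y arrays. It rose in KO/Y over +Tx by 0.58 (SE 0.12, adjusted p = 0.00802), with every KO/Y array above every other array, and its 2 probes, at 0.58 and 0.45, gave the same direction. In KO/Y over −Tx they gave 0.59 (adjusted p = 0.00346) and 0.22 (adjusted p = 0.0602 over all probes). Its value in +Tx over −Tx was 0.01 (adjusted p = 0.954).

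On their brightest probes, the other 3 feedback genes did not pass in any comparison. *Mdm4*, a relative of *Mdm2* that inhibits p53, had log2 fold changes of -0.18, -0.09 and -0.27 in +Tx over −Tx, KO/Y over +Tx and KO/Y over −Tx, and *Rps27l*, a ribosomal protein gene induced by p53, had -0.09, 0.25 and 0.16. *Trp73*, a p53 family member, had -0.33, 0.09 and -0.24 on its brightest probe. Its other 2 probes, which were well above background on 2 and 1 of the +Tx arrays, gave 1.01 and 0.57 in KO/Y over +Tx and passed (adjusted p = 0.0139 and 0.0286 over all probes). The first of them also passed in KO/Y over −Tx (0.84, adjusted p = 0.0171), so the probes of *Trp73* disagree, and their mean passed in KO/Y over +Tx (0.56, adjusted p = 0.0143). With slide as a block, *Mdm2* and *Ccng1* no longer passed in +Tx over −Tx (0.21 and 0.27, adjusted p = 0.225 and 0.274). *Ccng1* did not pass in KO/Y over +Tx either (0.28, adjusted p = 0.121), and *Mdm2*, *Ccng1* and *Trp53inp1* did not in KO/Y over −Tx (0.26, 0.54 and 0.42, adjusted p = 0.183, 0.0667 and 0.211). *Trp53inp1* did pass with the block in KO/Y over +Tx (0.53, adjusted p = 0.0306).

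**Figure D2:**
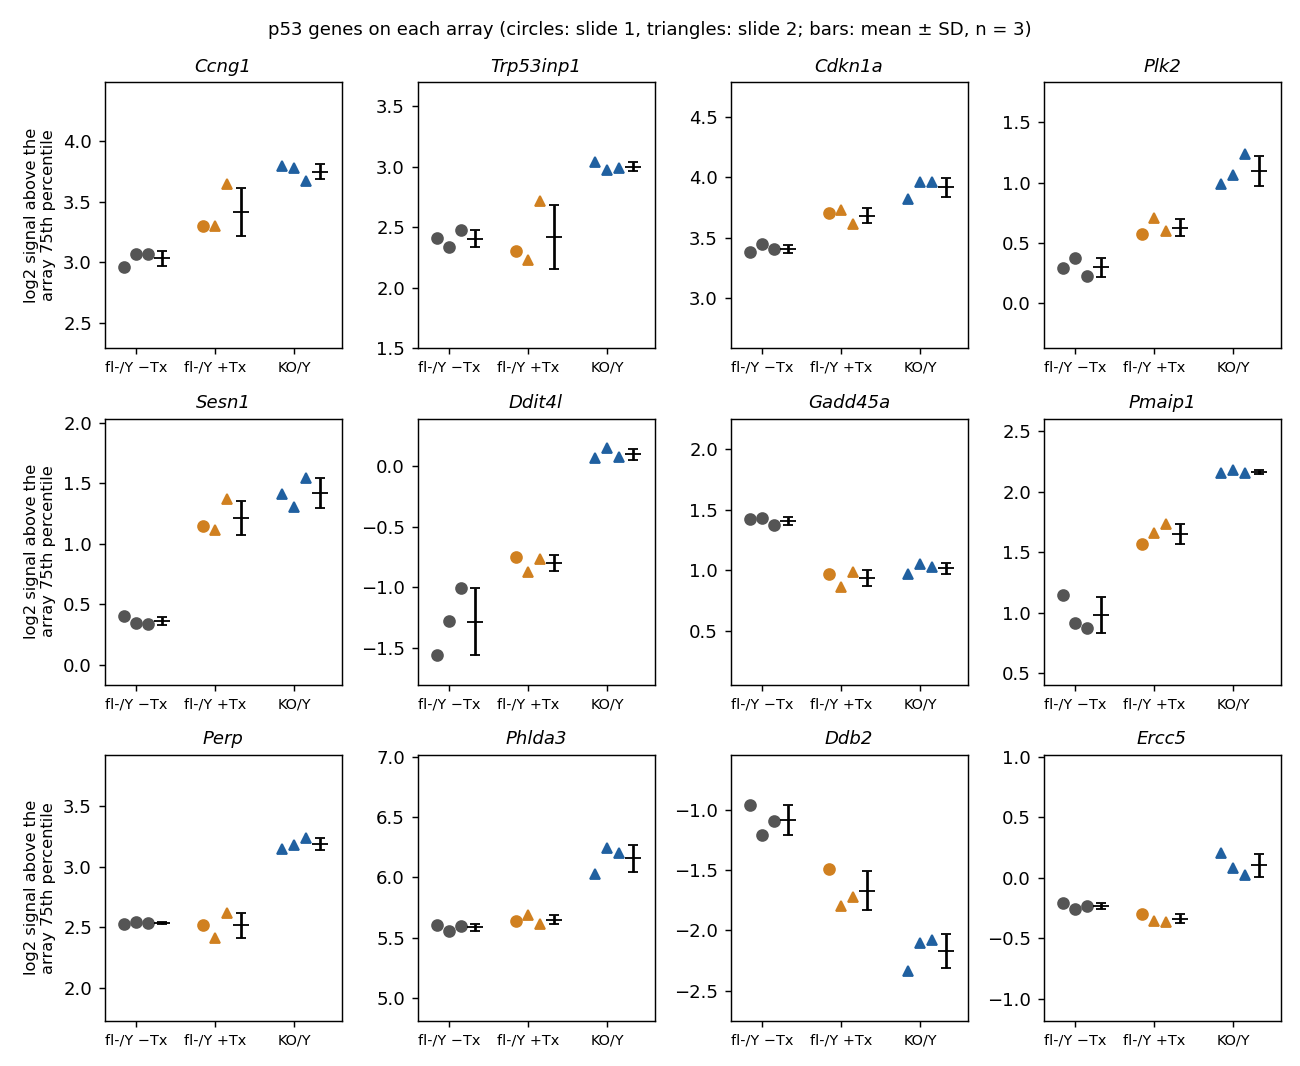
Log2 signal (vertical axis, relative to each array's 75th percentile and with the same span in each panel) of 12 p53 genes on the 9 arrays, by group (horizontal axis). Points are arrays, circles on slide 1 and triangles on slide 2, and bars are the mean ± SD of 3 arrays: *Pmaip1*, *Ddit4l*, *Plk2* and *Cdkn1a* step up from group to group, *Ddb2* steps down, *Perp*, *Phlda3* and *Ercc5* have all KO/Y arrays above the others, and *Gadd45a* is lower in both +Tx and KO/Y.

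Among the 9 genes of cell cycle arrest, 5 rose and 1 fell in +Tx over −Tx, where 12.0% and 14.8% of all genes did. In KO/Y over +Tx, 3 rose and none fell, beside 12.2% and 14.0% of all genes. KO/Y over −Tx gave 6 that rose and 1 that fell, beside 20.6% and 26.3%. *Cdkn1a*, the gene of the cyclin-dependent kinase inhibitor p21, gave log2 signals of 3.38, 3.45 and 3.41 on the −Tx arrays, 3.71, 3.73 and 3.62 on the +Tx arrays, and 3.83, 3.96 and 3.96 on the KO/Y arrays. The 3 groups did not overlap, and the order was −Tx, +Tx, KO/Y. The log2 fold changes were 0.27 (SE 0.0648, adjusted p = 0.0159) in +Tx over −Tx, 0.23 (adjusted p = 0.0301) in KO/Y over +Tx and 0.51 (adjusted p = 0.000302) in KO/Y over −Tx, the last a 1.42-fold higher signal. Its 10-spot probe lies on chromosome 17 from 29237377 to 29237436 of mm9, and the other 2 probes of *Cdkn1a* gave 0.73 and 0.68 in KO/Y over −Tx. The first of these also passed in +Tx over −Tx and KO/Y over +Tx (0.40 and 0.32, adjusted p = 0.0058 and 0.0138 over all probes). The second, the dimmest, passed in neither (0.23 and 0.46, adjusted p = 0.381 and 0.0963), and its −Tx and +Tx arrays overlapped. *Cdkn1a* is the gene whose printed stretch holds both decamers.

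*Sesn1*, the gene of a sestrin that restrains mTORC1, rose within the first 4 days. Its log2 signals were 0.40, 0.34 and 0.34 on the −Tx arrays, 1.15, 1.12 and 1.37 on the +Tx arrays, and 1.41, 1.30 and 1.55 on the KO/Y arrays. The +Tx and KO/Y arrays all lay above the −Tx arrays and overlapped each other. The log2 fold change was 0.85 (SE 0.0899, adjusted p = 0.000377) in +Tx over −Tx, 0.21 (adjusted p = 0.129) in KO/Y over +Tx and 1.06 (adjusted p = 3.3e-05) in KO/Y over −Tx. *Sesn2*, its paralogue, had -0.22, 0.14 and -0.08 and passed in none of the 3. The *Sesn1* probe lies on chromosome 10 from 41628012 to 41628071 of mm9.

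*Ddit4l*, a relative of the mTORC1 inhibitor *Ddit4*, had the largest change of the 32 genes in KO/Y over −Tx. It gave log2 signals of -1.56, -1.28 and -1.01 on the −Tx arrays, -0.75, -0.88 and -0.77 on the +Tx arrays, and 0.06, 0.15 and 0.08 on the KO/Y arrays. The −Tx arrays spread the widest, and the 3 groups did not overlap. It rose by 0.49 (SE 0.125, adjusted p = 0.0222), 0.90 (adjusted p = 0.00125) and 1.38 (adjusted p = 4.52e-05) in +Tx over −Tx, KO/Y over +Tx and KO/Y over −Tx, the last a 2.61-fold higher signal. Its probe lies on chromosome 3 from 137290927 to 137290986 of mm9. *Plk2*, a polo-like kinase gene of the p53 response, followed the same order, with 0.29, 0.38 and 0.23 on the −Tx arrays, 0.57, 0.71 and 0.60 on the +Tx arrays, and 0.99, 1.06 and 1.24 on the KO/Y arrays. Its groups did not overlap, and the log2 fold changes were 0.33 (SE 0.0817, adjusted p = 0.0193), 0.47 (adjusted p = 0.00375) and 0.80 (adjusted p = 8.95e-05).

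*Gadd45a*, a growth arrest gene induced by DNA damage, went the other way. Its log2 signals were 1.43, 1.43 and 1.37 on the −Tx arrays, 0.97, 0.86 and 0.98 on the +Tx arrays, and 0.97, 1.05 and 1.02 on the KO/Y arrays. It fell by 0.47 (SE 0.0598, adjusted p = 0.00094) in +Tx over −Tx and by 0.39 (adjusted p = 0.000752) in KO/Y over −Tx, with no overlap with the −Tx arrays, while KO/Y over +Tx gave 0.08 (adjusted p = 0.4). *Plk3*, another polo-like kinase, rose by 0.27 in +Tx over −Tx (adjusted p = 0.0116) and 0.19 in KO/Y over −Tx (adjusted p = 0.0292). *Btg2*, an antiproliferative gene, rose by 0.37 in KO/Y over −Tx alone (adjusted p = 0.00898), with 0.26 in +Tx over −Tx (adjusted p = 0.0611). *Gtse1*, whose product carries p53 out of the nucleus in G2, had -0.09, 0.13 and 0.04 and did not pass.

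With slide as a block, *Sesn1* (0.79, adjusted p = 0.0116) and *Gadd45a* (-0.44, adjusted p = 0.0238) were the arrest genes that passed in +Tx over −Tx, and *Cdkn1a*, *Plk2*, *Plk3* and *Ddit4l* did not (0.30, 0.28, 0.21 and 0.53, adjusted p between 0.102 and 0.194). With the block, KO/Y over −Tx kept calls for *Cdkn1a* (0.54, adjusted p = 0.0212), *Plk2* (0.72, adjusted p = 0.0161), *Sesn1* (0.96, adjusted p = 0.0076) and *Ddit4l* (1.45, adjusted p = 0.00583), while *Btg2*, *Plk3* and *Gadd45a* did not pass (0.37, 0.10 and -0.35, adjusted p = 0.176, 0.585 and 0.067). *Plk2* and *Ddit4l* also passed with it in KO/Y over +Tx and *Cdkn1a* did not (0.24, adjusted p = 0.0646).

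Of the 12 apoptosis genes, 3 rose and 2 fell in +Tx over −Tx. These are 25% and 16.7%, beside 12.0% and 14.8% of all genes, so that the share that fell lay near that of all genes. In KO/Y over +Tx, 5 rose and none fell, beside 12.2% and 14.0% of all genes. KO/Y over −Tx gave 6 that rose and 2 that fell, beside 20.6% and 26.3%. *Pmaip1*, the gene of the BH3-only protein Noxa, gave log2 signals of 1.15, 0.92 and 0.87 on the −Tx arrays, 1.56, 1.65 and 1.73 on the +Tx arrays, and 2.15, 2.18 and 2.15 on the KO/Y arrays. The 3 groups were fully separate, with an SD of 0.015 over the KO/Y arrays. *Pmaip1* rose by 0.67 (SE 0.0837, adjusted p = 0.00085) in +Tx over −Tx, 0.51 (adjusted p = 0.00278) in KO/Y over +Tx and 1.18 (adjusted p = 1.23e-05) in KO/Y over −Tx, a 2.27-fold higher signal. *Bbc3*, the gene of the BH3-only protein Puma, gave another pattern. Its log2 signals were 2.86, 2.78 and 2.76 on the −Tx arrays, 2.48, 2.54 and 2.33 on the +Tx arrays, and 2.82, 2.96 and 2.68 on the KO/Y arrays. It fell by 0.35 (SE 0.0888, adjusted p = 0.0222) in +Tx over −Tx and rose by 0.37 (adjusted p = 0.0157) in KO/Y over +Tx, so that KO/Y and −Tx arrays overlapped (0.03, adjusted p = 0.837).

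Both *Perp*, a membrane protein gene of p53-dependent apoptosis, and *Phlda3*, whose product holds back Akt, were higher in KO/Y cells with no call after 4 days. *Perp* gave 2.52, 2.54 and 2.53 on the −Tx arrays, 2.52, 2.41 and 2.62 on the +Tx arrays, and 3.14, 3.18 and 3.24 on the KO/Y arrays. *Phlda3* gave 5.61, 5.56 and 5.60, then 5.64, 5.69 and 5.61, and then 6.03, 6.25 and 6.20 in the same order of groups. Every KO/Y array lay above all others for both genes, while −Tx and +Tx arrays overlapped for *Perp* and lay next to each other without overlap for *Phlda3*. *Perp* rose in KO/Y over +Tx by 0.67 (SE 0.0671, adjusted p = 0.000231) and *Phlda3* by 0.51 (SE 0.0696, adjusted p = 0.00114), while +Tx over −Tx gave -0.02 (adjusted p = 0.879) and 0.06 (adjusted p = 0.538). *Fas*, a death receptor gene, rose at both steps, with 0.02, -0.04 and 0.03 on the −Tx arrays, 0.28, 0.16 and 0.44 on the +Tx arrays, and 0.78, 0.55 and 0.69 on the KO/Y arrays. Its groups did not overlap, and the log2 fold changes were 0.29 (SE 0.089, adjusted p = 0.0425), 0.38 (adjusted p = 0.0151) and 0.67 (adjusted p = 0.000375).

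*Ei24*, an endoplasmic reticulum protein gene induced by p53, rose after 4 days. Its log2 signals were 0.53, 0.74 and 0.80 on the −Tx arrays, 1.31, 1.34 and 1.57 on the +Tx arrays, and 1.73, 1.13 and 1.31 on the KO/Y arrays, where array 1 stood above the other two. The log2 fold changes were 0.72 (SE 0.155, adjusted p = 0.0109), -0.02 (adjusted p = 0.946) and 0.70 (adjusted p = 0.00571). *Apaf1*, the gene of the apoptosome scaffold, rose by 0.31 in KO/Y over −Tx (adjusted p = 0.0438). *Bax*, the gene of a pore-forming Bcl-2 family protein, fell by 0.32 in KO/Y over −Tx (adjusted p = 0.0138), with -0.26 in +Tx over −Tx (adjusted p = 0.0522). *Aen*, a nuclease gene, fell by 0.24 in +Tx over −Tx (adjusted p = 0.025) and by 0.25 in KO/Y over −Tx (adjusted p = 0.011), and its second probe gave -0.22 and -0.33. *Zmat3*, an RNA-binding protein gene (-0.02, 0.27 and 0.25), and the receptor genes *Tnfrsf10b* (-0.01, 0.09 and 0.08) and *Eda2r* (-0.17, 0.35 and 0.18) did not pass in any comparison.

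With slide as a block, *Pmaip1* (0.59, adjusted p = 0.023) and *Aen* (-0.35, adjusted p = 0.036) passed in +Tx over −Tx, and *Fas*, *Ei24* and *Bbc3* did not (0.28, 0.62 and -0.32, adjusted p = 0.232, 0.131 and 0.179). *Pmaip1*, *Perp*, *Phlda3*, *Fas* and *Bbc3* all passed with it in KO/Y over +Tx, at adjusted p between 0.00147 and 0.0458. Over −Tx, KO/Y cells kept *Pmaip1* (1.05), *Perp* (0.66), *Fas* (0.65) and *Phlda3* (0.56) as higher and *Aen* (-0.41) as lower, at adjusted p between 0.0036 and 0.0327, and *Ei24*, *Apaf1* and *Bax* did not (0.55, 0.21 and -0.30, adjusted p = 0.223, 0.517 and 0.248).

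The 4 repair genes tested moved in different directions. *Ddb2*, the gene of a subunit that recognises ultraviolet damage in nucleotide excision repair, gave log2 signals of -0.96, -1.21 and -1.09 on the −Tx arrays, -1.49, -1.79 and -1.73 on the +Tx arrays, and -2.33, -2.11 and -2.08 on the KO/Y arrays. The 3 groups did not overlap, and it fell by 0.58 (SE 0.109, adjusted p = 0.00608), by 0.50 (adjusted p = 0.0105) and by 1.08 (adjusted p = 8.29e-05) in +Tx over −Tx, KO/Y over +Tx and KO/Y over −Tx, the last a 2.12-fold lower signal. Its probe lies on chromosome 2 from 91052013 to 91052072 of mm9. *Ercc5*, the gene of the excision repair nuclease XPG, gave -0.21, -0.26 and -0.23 on the −Tx arrays, -0.30, -0.35 and -0.37 on the +Tx arrays, and 0.21, 0.08 and 0.02 on the KO/Y arrays. Every KO/Y array lay above all others, and it rose by 0.44 (SE 0.0646, adjusted p = 0.00154) in KO/Y over +Tx and 0.34 (adjusted p = 0.0026) in KO/Y over −Tx. A second, much dimmer *Ercc5* probe, well above background on 2 −Tx, 1 +Tx and 3 KO/Y arrays, gave 0.52 (adjusted p = 0.0472 over all probes) and 0.07 (adjusted p = 0.753), and the mean of both did not pass in KO/Y over −Tx (0.21, adjusted p = 0.101).

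*Polk*, the gene of a translesion DNA polymerase, gave -1.71, -1.69 and -1.64 on the −Tx arrays, -1.26, -1.18 and -1.08 on the +Tx arrays, and -1.18, -1.52 and -1.25 on the KO/Y arrays. It rose by 0.51 (SE 0.0948, adjusted p = 0.0059) in +Tx over −Tx and 0.36 (adjusted p = 0.0132) in KO/Y over −Tx, while its second, dimmer probe gave 0.11 and 0.05 and did not pass. *Xpc*, which recognises distorted DNA, had -0.03, 0.22 and 0.19 and did not pass. With slide as a block, *Ddb2* passed in KO/Y over +Tx (-0.41, adjusted p = 0.033) and KO/Y over −Tx (-0.81, adjusted p = 0.0158) and not in +Tx over −Tx (-0.40, adjusted p = 0.108). *Ercc5* passed in KO/Y over +Tx (0.46, adjusted p = 0.00553) and missed in KO/Y over −Tx (0.40, adjusted p = 0.0541), and *Polk* missed in both of its calls (0.42 and 0.23, adjusted p = 0.0965 and 0.395).

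**Figure D3:**
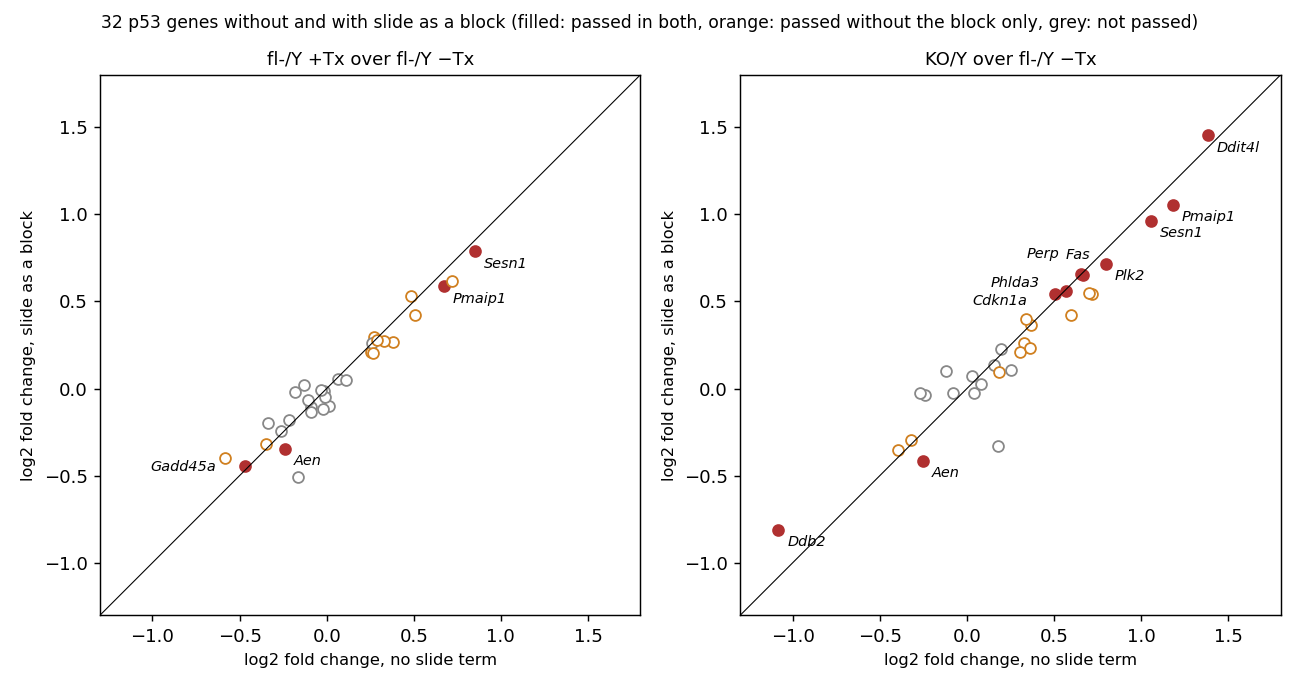
Log2 fold changes of the 32 p53 genes without a slide term (horizontal axis) and with slide as a block (vertical axis), in +Tx over −Tx (left) and KO/Y over −Tx (right), with the line of equal values. Filled points passed an adjusted p under 0.05 in both, orange points without the block only, and grey points in neither: 2 genes rose and 2 fell with the block on the left, and 8 rose and 2 fell on the right.

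Counted over the whole set, slide as a block left 2 p53 genes that rose and 2 that fell in +Tx over −Tx, 9 and 1 in KO/Y over +Tx, and 8 and 2 in KO/Y over −Tx, with *Ddit4l* and *Pmaip1* past 2-fold. Of all genes, 4.78% rose and 5.25% fell with the block in +Tx over −Tx. The shares were 9.25% and 11.0% in KO/Y over +Tx, and 9.66% and 12.2% in KO/Y over −Tx. No share of all genes past 2-fold is given with the block. On slide 1 alone, with 3 −Tx arrays against +Tx array 1, and on slide 2 alone, with 3 KO/Y arrays against +Tx arrays 2 and 3, the estimates equal those of the block. The group of 1 array adds nothing to the spread on slide 1, which there comes from the −Tx arrays, and *Sesn1* (0.79, adjusted p = 0.0259) was the p53 gene that passed, with *Gadd45a* at -0.44 (adjusted p = 0.0509) and *Pmaip1* at 0.59 (adjusted p = 0.0843), where 3.21% of all genes rose and 3.85% fell. On slide 2, 5 genes rose and none fell, where 6.52% of all genes rose and 5.94% fell.

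Other genes of the pathway were counted from lists of their own. Of 33 regulators of p53, 4 rose and 7 fell in +Tx over −Tx, 5 and 7 in KO/Y over +Tx, and 6 and 13 in KO/Y over −Tx. These are 12.1% and 21.2%, 15.2% and 21.2%, and 18.2% and 39.4% of the list, beside 12.0% and 14.8%, 12.2% and 14.0%, and 20.6% and 26.3% of all genes, so that the shares that rose lay near those of all genes. *Trp63*, the gene of p63, another p53 family member, gave log2 signals of 3.41, 3.27 and 3.32 on the −Tx arrays, 4.32, 4.37 and 4.13 on the +Tx arrays, and 4.88, 5.09 and 4.75 on the KO/Y arrays. It rose by 0.94 (SE 0.102, adjusted p = 0.000437) in +Tx over −Tx and 1.58 (adjusted p = 7.45e-06) in KO/Y over −Tx. *Crebbp*, a histone acetyltransferase gene, rose by 0.86 and 1.49 (adjusted p = 0.000353 and 4.85e-06) in the same comparisons. Its second probe gave 1.18 and 1.41 and did not pass (adjusted p = 0.134 and 0.0526 over all probes). *Smyd2*, which methylates p53, rose by 0.58 in +Tx over −Tx (adjusted p = 0.000416), and *Trp53bp1*, whose product binds p53 at damaged DNA, fell by 0.65 (adjusted p = 0.00183), although its second probe gave -0.26. *Usp10*, a deubiquitinase gene, and *Pml* fell by 0.86 and 0.81 in KO/Y over −Tx (adjusted p = 3.86e-05 and 1.74e-05), with -0.25 on the second *Pml* probe, and *Hipk2*, a p53 kinase gene, rose by 0.53 in KO/Y over +Tx (adjusted p = 0.00598), with 0.12 on its second probe. With slide as a block, 3 of the 33 regulators rose and 2 fell in +Tx over −Tx, where 4.78% of all genes rose and 5.25% fell. In KO/Y over −Tx, 3 of the 33 rose and 7 fell with it, where 9.66% and 12.2% of all genes did. For KO/Y over +Tx, no count of regulators with the block is given.

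A second list held 34 other reported p53 targets, of which 33 were tested. It gave 8 that rose and 5 that fell in +Tx over −Tx, 16 and 2 in KO/Y over +Tx, and 17 and 5 in KO/Y over −Tx. The shares that rose were 24.2%, 48.5% and 51.5%, beside 12.0%, 12.2% and 20.6% of all genes, and those that fell 15.2%, 6.06% and 15.2%, beside 14.8%, 14.0% and 26.3%. Their medians were 0.05, 0.21 and 0.24, near the -0.01, 0.20 and 0.28 of the 32 p53 genes. *Igfbp3*, whose product binds insulin-like growth factors, rose by 1.07 (SE 0.196, adjusted p = 0.00483) in KO/Y over +Tx. *Steap3*, a metalloreductase gene, rose by 0.93 in +Tx over −Tx (adjusted p = 0.00634) and 1.01 in KO/Y over −Tx (adjusted p = 0.00163), and *Kank3* fell by 0.87 in KO/Y over −Tx. *Dram1*, an autophagy gene, was not well above background on any −Tx array and was at least 1.70-fold higher in KO/Y cells (adjusted p = 0.0403). The bound sets the KO/Y mean against the lowest signal that counted as well above background on each −Tx array, or the signal of the probe where that was higher. *Thbs1* rose by 0.57 in +Tx over −Tx, *Tap1* and *Ddit4* by 0.65 and 0.56 in KO/Y over +Tx, and *Pltp* fell by 0.68 in +Tx over −Tx. Under the slide block, 2 of the 33 rose and 3 fell in +Tx over −Tx, where 4.78% of all genes rose and 5.25% fell. In KO/Y over −Tx, 7 of the 33 rose and 3 fell with it, where 9.66% and 12.2% of all genes did. No count of these targets with the block is given for KO/Y over +Tx, the comparison with 16 that rose.

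Genes of the G2 and M phases, which p53 is known to lower through p21, were counted beside the arrest genes. Of 18, none rose in any comparison, while 7 fell in +Tx over −Tx, 10 in KO/Y over +Tx and 15 in KO/Y over −Tx, with medians of -0.21, -0.25 and -0.49. These are 38.9%, 55.6% and 83.3% of the list, beside the 14.8%, 14.0% and 26.3% of all genes that fell. With slide as a block, 4, 8 and 11 fell, where 5.25%, 11.0% and 12.2% of all genes did. *Foxm1*, a transcription factor gene of the G2/M programme, gave 0.85, 0.99 and 0.94 on the −Tx arrays, 0.56, 0.41 and 0.51 on the +Tx arrays, and 0.00, 0.07 and 0.04 on the KO/Y arrays, and fell by 0.89 (SE 0.066, adjusted p = 1.59e-05) in KO/Y over −Tx. *Aurkb*, *Cenpa* and *Top2a* fell by 0.86, 0.71 and 0.67 in the same comparison, *Bub1* fell by 0.55 in KO/Y over +Tx, and *Cdc25c* and *Ccnb2* fell by 0.53 and 0.48 in +Tx over −Tx. None of the 18 passed 2-fold, where 2.50%, 3.40% and 7.56% of all genes did in +Tx over −Tx, KO/Y over +Tx and KO/Y over −Tx.

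Markers of other cells also changed between the groups. All 18 fibroblast markers rose in KO/Y over −Tx, where 20.6% of all genes did. In each single step 10 of 18 rose, beside 12.0% of all genes in +Tx over −Tx and 12.2% in KO/Y over +Tx. Their summed linear signal was 953 to 970 on the −Tx arrays, 1100 to 1105 on the +Tx arrays and 1325 to 1386 on the KO/Y arrays. *Col1a1*, *Col1a2* and *Col3a1*, collagen genes of fibroblasts, had log2 fold changes of 0.55, 0.52 and 0.81 in KO/Y over −Tx. Their log2 signals were far above background in all groups, with *Col1a1* at 5.81 ± 0.138 (SD, n = 3) in −Tx cells. The sum of the 10 primitive endoderm markers was 9.20 to 9.37, 12.4 to 14.9 and 39.5 to 59.7 in −Tx, +Tx and KO/Y. In +Tx over −Tx, 4 of them rose and 2 fell, 1 of the latter past 2-fold, and the lowest log2 fold change was -1.38. All 10 rose in KO/Y over +Tx and in KO/Y over −Tx. *Gata4*, *Gata6* and *Sox7* rose by 2.41, 2.54 and 2.70 in KO/Y over −Tx, where *Sox7* was well above background on 1 of the 3 −Tx arrays. The sum of the 8 tested 2-cell markers was 21.3 to 22.0, 112 to 126 and 174 to 202, with *Zscan4c* and *Zscan4f* higher by 3.76 and 4.08 in KO/Y over −Tx. All 10 ES cell markers were well above background on all 9 arrays, and none rose in any comparison, while 2 fell in +Tx over −Tx, 5 in KO/Y over +Tx and 6 in KO/Y over −Tx, there with a median of -0.39 and a lowest value of -0.99. The falls are 20%, 50% and 60% of the list, beside 14.8%, 14.0% and 26.3% of all genes. Of those defining ES cells, *Sox2* fell by 0.52 in KO/Y over −Tx, and *Pou5f1* (-0.65, adjusted p = 0.0562) and *Nanog* (-0.10) did not pass. The sum of the 10 markers, most of it from *Dppa5a* (8.57 to 8.96 as log2 signal), was 793 to 840, 727 to 778 and 592 to 717. The median log2 signal of the 32 p53 genes was 1.35 to 1.37 on the −Tx arrays, 1.45 to 1.65 on the +Tx arrays and 1.71 to 1.90 on the KO/Y arrays. That median is set by the genes of middle brightness, while the median log2 fold change of the 32 genes in +Tx over −Tx was -0.01. No values with slide as a block are given for these markers. The part of these other cells in the changes of the p53 genes was not tested.

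**Figure D4:**
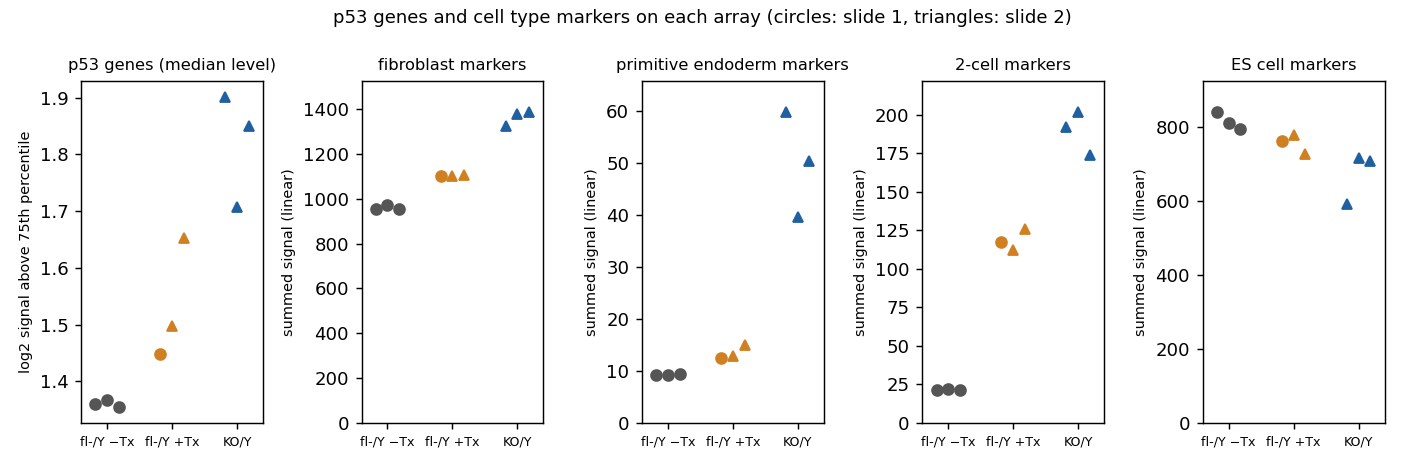
Median log2 signal of the 32 p53 genes (left) and summed linear signal of 4 marker lists (other panels, relative to the array's 75th percentile) on the 9 arrays, by group, with circles for slide 1 and triangles for slide 2. The fibroblast, primitive endoderm and 2-cell sums are higher from −Tx to +Tx to KO/Y without overlap, and the ES cell sum is lower, from 793 to 840 down to 592 to 717. The p53 median level is also higher from group to group, but is set by the genes of middle brightness. The median log2 fold change of the 32 genes in +Tx over −Tx was -0.01, so the level does not show a rise of the whole set there.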

How the data were processed

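RNA of 3 groups was measured on 9 one-colour arrays (SurePrint G3 Mouse GE, Agilent), 3 per group. Per the file headers, the authors read the scans with Agilent Feature Extraction 10.7.3.1, which gave for each spot an intensity in the Cy3 channel with its background subtracted. The authors also deposited 1 signal column per group, equal to the geometric mean of the scaled arrays of that group apart from a log2 offset of 0.162 to 0.166, used here as an alternative without a test. The study names NIA Array Analysis, whose settings are not known here, and limma stood in for it.

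The log2 of each intensity was taken in R 4.3.3 (package data.table, version 1.17.8), less the 75th percentile of its array. Control and outlier spots were dropped and repeat spots averaged. A probe entered if it was well above background throughout 1 group or more, and of several probes of a gene the brightest was used. Gene names are those of the array, with 27235 probes named through a RefSeq accession. All 22441 genes were fitted together over the 9 arrays with limma 3.58.1 (lmFit, eBayes) and adjusted after Benjamini-Hochberg. The method was tested on simulated data. The precision is set by 3 arrays per group, and since arrays are not tied to cultures, p-values measure the spread between these arrays, which may be technical.

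The p53 genes and all other lists were chosen with earlier results of these data known. Named are all 33 p53 genes, *Nr0b1*, up to 4 genes with the largest change past the test in each of the regulator, other target and G2/M lists per comparison, and the first 3 of each marker list, of which *Zscan4d* had no probe matched. A further gene that this rule names is not reported here. Each alternative changed a single choice: normexp in place of the processed signal (offset 50), quantile normalization, scaling by a median, the filter on dim probes, outlier spots kept, the mean over probes, a fit of the 6 arrays compared, slide as a block or the shared slide, the variance (an intensity trend, or at least the mean of 500 genes of like intensity), and each array left out.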

Additional observations from a re-analysis of the deposited data

How the results depend on the processing

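No value of the p53 genes that had passed changed its direction under any alternative, and the medians moved by less than the spread between arrays in all. In +Tx over −Tx, the 11 genes that rose became 5 with no filter on dim probes, 2 with slide as a block, 1 on the shared slide and 2 with the larger of own and neighbouring variance, and 6 to 11 with an array left out. The 4 that fell became 7 with normexp, 2 with no filter, 2 with slide as a block, 0 on the shared slide, 7 with an intensity trend and 0 with the larger variance, and 2 to 6 with an array left out. The lowest of these followed the loss of any 1 of −Tx arrays 1, 2 and 3. The shares over all genes moved too, and those with slide as a block are given above. Of all genes, 5.33% rose and 5.80% fell with no filter, and 3.52% and 3.03% with the larger variance. Normexp gave 14.7% of all genes that fell, and the intensity trend 17.5%. *Sesn1*, *Pmaip1*, *Ei24*, *Polk*, *Gadd45a* and *Ddb2* passed in this comparison with every array left out in turn, and *Mdm2*, *Ccng1*, *Cdkn1a*, *Plk2*, *Plk3*, *Ddit4l*, *Fas*, *Bbc3* and *Aen* each missed at least once (highest adjusted p = 0.124, for *Fas* without −Tx array 2).

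In KO/Y over +Tx, the 11 that rose became 5 on the shared slide and 5 with the larger variance, and the 1 that fell, *Ddb2*, became 0 in both. Of all genes, 6.52% rose and 5.94% fell on the shared slide, and 3.96% and 4.92% with the larger variance. *Ccng1* passed with 1 of 9 arrays left out, *Cdkn1a* with 2 and *Fas* with 8 (highest adjusted p = 0.125 without +Tx array 2, 0.094 without KO/Y array 3 and 0.0517 without +Tx array 2). In KO/Y over −Tx, the 17 that rose became 8 and the 4 that fell became 2 with slide as a block, and the 4 past 2-fold became 2 with the block and 2 with normexp. With the block, 9.66% of all genes rose and 12.2% fell. The share of all genes past 2-fold is given neither for the block nor for normexp. *Plk3* and *Apaf1* were the calls lost with an array left out (highest adjusted p = 0.0983 without −Tx array 2 and 0.132 without KO/Y array 1). With the mean over probes, *Polk* was lost in +Tx over −Tx and in KO/Y over −Tx (0.31 and 0.21, adjusted p = 0.132 and 0.255) and *Ercc5* in the latter, while *Trp73* and *Eda2r* passed in KO/Y over +Tx (0.56 and 0.33, adjusted p = 0.0143 and 0.049). The cause of these changes was not tested. No paired analysis was possible because arrays are not tied to replicate numbers.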
